A study of Mus musculus with 12 samples.

Results

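The 9 genes described here encode the enzymes by which the liver makes fatty acids, together with Thrsp, a small protein (Spot 14) that accompanies them. They are Acly, Me1, Acaca, Acacb, Fasn, Thrsp, Scd1, Elovl6 and Elovl5, chosen by name from 21900 annotated protein-coding genes. CTCF peaks of 6 liver libraries were merged into 76061 sites, and 112 of these sites overlapped the body of one of the 9 genes or the 20 kb on either side of it. The tissue was whole liver of wild-type (WT) male C57BL6/Ncrl mice, 3 to 4 months old and kept on normal chow. Starved mice had gone without food for 24 h and their livers were collected at ZT13 (zeitgeber time, in hours after lights on). Fed mice ate freely and their livers were collected at ZT16. Each state had 3 chromatin immunoprecipitation (ChIP-seq) libraries made with 1 CTCF antibody from Diagenode, and each library had its own peak list.

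In lipogenesis, citrate leaving the mitochondria is split by ATP citrate lyase into acetyl-CoA, which acetyl-CoA carboxylase turns into malonyl-CoA and fatty acid synthase joins into palmitate. Elongases and desaturases then lengthen and unsaturate the product, and malic enzyme is one source of the NADPH spent on the way. Feeding and insulin are known to raise transcription of these genes in liver, and fasting to lower it. CTCF is a zinc finger protein that binds a long, conserved DNA motif, stops loop extrusion by cohesin and so anchors chromatin loops and insulates neighbouring regions. A peak list records where its binding was called and gives no transcript levels, so neither expression of the 9 genes nor liver marker genes could be read from these data.

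The starved lists held 30752, 23926 and 29866 peaks in starved 1, 2 and 3, against 56103, 49030 and 74950 peaks in fed 1, 2 and 3. Read depth is unknown, and the length of a peak list, the collection time and the feeding state all separated the same libraries, so their parts in any difference cannot be told apart. The livers were whole, so fewer cells with a bound site and less binding per cell cannot be told apart either. Whether each library of a group is from its own mouse is not in the labels, and the p-values given here describe library-to-library spread, part of which may be technical.

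The sequences at which a called site met a gene start are shown first. They are the stretches at the starts of Fasn and Elovl6 and the stretch under the best-ranked site at Acacb. RefSeq promoter windows (GRCm38.p6, the same build as mm10) ran from 250 bases before to 50 bases after the start. They were at hand for 8 of the 9 genes (all but Scd1), in 9 windows. Of these 9 windows, only those of Fasn and Elovl6 met a called site. The Acaca window lies inside the annotated gene, and sites at the annotated ends of Acaca and Scd1 are given below. In the Fasn window (minus strand, chr11:120824498-120824797) capitals mark the 204 bases that lay inside a called site. In the Elovl6 window (plus strand, chr3:129532136-129532435) and in the window of Alkbh2, a DNA repair gene near Acacb (minus strand, chr5:114128169-114128468), capitals mark a match to part of the CTCF motif. The Elovl6 capitals lie outside the called site, whose own bases are not marked.
Fasn promoter: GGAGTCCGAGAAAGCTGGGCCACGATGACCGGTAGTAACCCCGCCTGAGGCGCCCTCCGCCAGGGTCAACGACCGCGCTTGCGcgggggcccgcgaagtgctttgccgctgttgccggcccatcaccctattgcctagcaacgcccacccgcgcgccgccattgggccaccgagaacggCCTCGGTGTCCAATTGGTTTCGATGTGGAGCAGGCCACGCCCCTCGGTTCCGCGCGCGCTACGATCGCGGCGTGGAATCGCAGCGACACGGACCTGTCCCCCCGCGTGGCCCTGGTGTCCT
Elovl6 promoter: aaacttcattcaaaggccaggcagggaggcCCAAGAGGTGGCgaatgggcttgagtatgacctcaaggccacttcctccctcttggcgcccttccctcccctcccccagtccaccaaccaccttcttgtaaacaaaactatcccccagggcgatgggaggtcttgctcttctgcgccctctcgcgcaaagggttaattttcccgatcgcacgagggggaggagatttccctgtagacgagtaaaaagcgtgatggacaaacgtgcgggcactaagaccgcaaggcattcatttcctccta
Alkbh2 promoter: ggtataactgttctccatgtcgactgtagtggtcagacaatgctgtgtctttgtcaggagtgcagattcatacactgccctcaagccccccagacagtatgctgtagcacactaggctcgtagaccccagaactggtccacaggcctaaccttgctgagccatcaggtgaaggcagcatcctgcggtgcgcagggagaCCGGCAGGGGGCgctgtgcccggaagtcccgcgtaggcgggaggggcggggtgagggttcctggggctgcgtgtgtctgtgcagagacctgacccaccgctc

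Part of the CTCF core motif was searched on both strands in a stricter and a looser form. The looser form leaves 1 more base free and so includes every match of the stricter one. The stricter form was present in 2.43% and the looser form in 8.61% of 32851 RefSeq promoter windows of the same length. Of windows under a site called in all 6 libraries, 10.2% held the stricter form, against 1.44% of windows under no site. The Alkbh2 match (looser form) lay under a peak in every library. The midpoints of those peaks were 23, 5 and 25 bp from the match in the starved livers, against 229, 5 and 187 bp in the fed livers. Peak width summed over this site was 777, 451 and 727 bp in starved livers, against 1182, 743 and 1146 bp in fed livers. A midpoint is the centre of a called interval and need not be where signal was highest. The Elovl6 match (stricter form) lay 76 bp from the nearest called site and under no peak. Among the other windows of the 9 genes, that of Thrsp held 1 match of the looser form and met no called site. Of the neighbours' windows that met a lipogenic site, those of Klhl11 (a site in all 6 libraries), Tada2a, Dus1l, Rwdd2a and Gm35986 held no match of either form. Neither form was found in the Fasn window, and that says only that these letters are not in it. A match is a description of sequence and not a binding site.

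CTCF peaks were called at fewer of the 112 sites in starved livers than in fed livers, and the difference was nearly as large over the whole genome. Peaks were called at 40, 25 and 34 of them in starved 1, 2 and 3, against 77, 59 and 107 in fed 1, 2 and 3. Every starved library lay below every fed library, with means of 33.0 ± 7.55 sites in starved and 81.0 ± 24.2 sites in fed livers (SD, n = 3 each). The fed to starved ratio was 2.45 at the lipogenic genes and 2.16 over all sites. An exact permutation of the labels (20 labellings, two-sided) gave p = 0.1, below which 3 libraries against 3 cannot go. As a share of all sites in a list, the lipogenic sites were 0.135, 0.108 and 0.118% in starved livers, against 0.141, 0.124 and 0.144% in fed livers. These shares overlapped between the groups (exact permutation p = 0.2). Fed 3, which had the longest list, alone held 32 of the 112 sites, where the share over all sites was 24.7%.

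**Figure D1:**
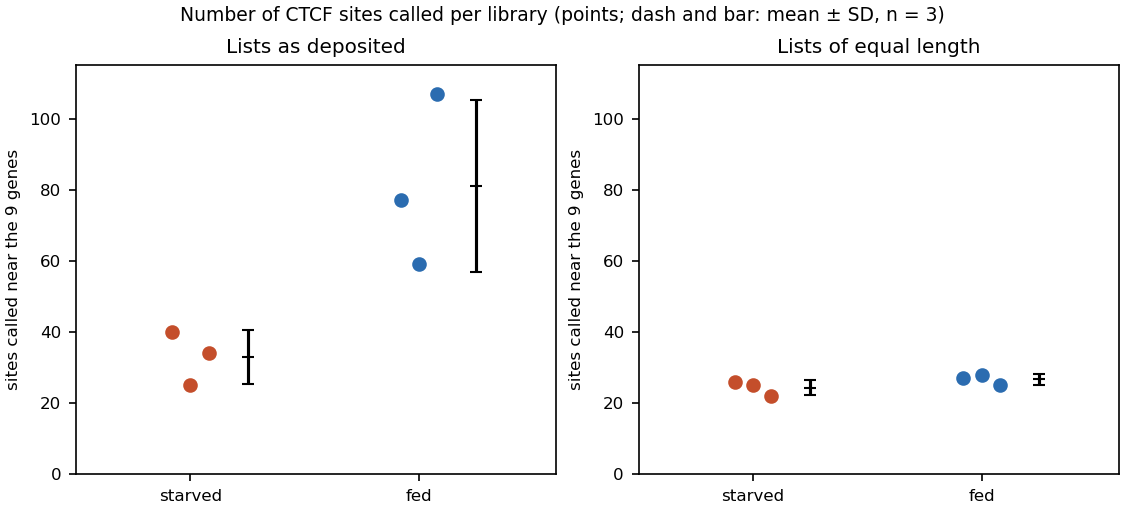
Number of CTCF sites called at the 9 lipogenic genes in each library, starved libraries to the left of fed libraries, in the lists as deposited and in lists cut to 23926 peaks. Each point is 1 library, and the dash with its bar is the group mean ± SD (n = 3). The groups do not overlap in the deposited lists (25 to 40 sites starved, 59 to 107 fed), whereas in lists of equal length they meet at 25 to 26 sites.

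When every list was reduced to its 23926 best-scored peaks, the length of the shortest list, the counts came close together. They were 26, 25 and 22 sites in starved livers, against 27, 28 and 25 sites in fed livers. The means were 24.3 ± 2.08 in starved and 26.7 ± 1.53 in fed livers (SD, n = 3 each), a difference of −2.33 sites (exact permutation p = 0.3). Without starved 2, whose list sets the common length, that difference was 0, and at 11963 peaks a list it was 1.67 sites.

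Presence across libraries sorted the 112 sites into few kinds. Those called in all 3 fed libraries, termed fed sites, numbered 56. Of these, 22 were called in all 6 libraries (39.3%, exact 95% interval 26.5 to 53.2), where the share over all fed sites was 49.3%. Another 17 were called in 1 or 2 starved libraries (30.4%, against 21.6% over all fed sites). The remaining 17 had no starved peak (30.4%, exact 95% interval 18.8 to 44.1, against 29.1% over all fed sites) and are termed fed-only. Outside the fed sites, 53 were called in 1 or 2 fed libraries with no starved peak and 3 in 1 or 2 fed libraries with a starved peak. No lipogenic site was called in starved livers alone, where the share over all sites was 0.0999%, and 70 of 112 (62.5%) had no starved peak, where the share over all sites was 57.2%. These intervals reflect counting error alone, because sites cannot serve as replicates.

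**Figure D2:**
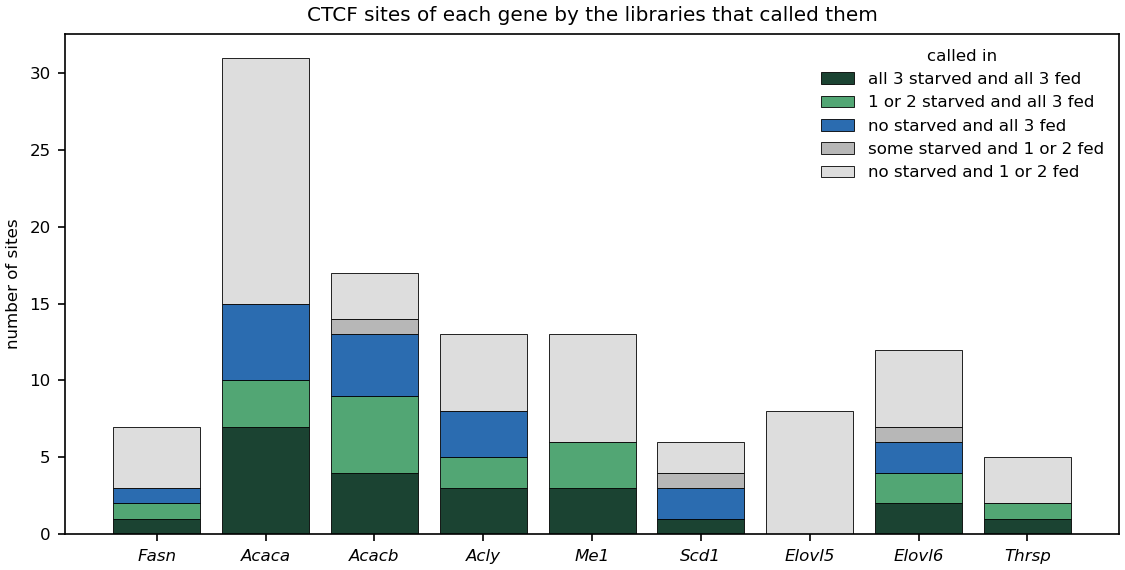
Number of CTCF sites at each of the 9 lipogenic genes as stacked bars, with colours for the libraries they were called in. All 6 libraries shared a site at every gene except Elovl5, and Acaca had the most such sites (7).

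The fed-only share rested on the limits used. Raising the score limit to the median score of all lists (30.4) left 29 fed sites, of which 15 (51.7%) had no starved peak, where the share over all fed sites was then 35.6%. This limit was 1 fixed score in every list, and scores were not scaled between lists, so a peak below it counted as missing whatever its rank. It left a mean of 12 lipogenic sites called in starved and 36 in fed livers. Whether the higher share is a trait of stronger sites was not tested. In gene bodies alone, without that limit, the fed-only share was 6 of 35 (17.1%), where the share over fed sites in all protein-coding gene bodies was 30.5%. In lists of equal length, 23 fed sites remained, and 18 of them (78.3%) were in all 6 lists, where the share over all fed sites was 88.9%. The other 5 were in 1 or 2 starved lists, and 0 had no starved peak, where that share was 1.20%. Of all 37 lipogenic sites in these lists, 6 (16.2%) were called in a starved list and no fed list, where the share over all sites was 8.23%. In the opposite direction, 4 (10.8%) had a fed and no starved peak, where that share was 5.06%. These 6 sites lay at Acacb, Acly and Elovl6, and each had a fed peak in the deposited lists.

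Fed sites with no starved peak were the low-ranked ones, both here and over the genome. The score of a peak is the authors' own value. A list rank is the percentile of a site's best score within its own library's list. Since the lists differ in length, list ranks given for starved and fed libraries cannot be compared as a measure of change. The mean fed list rank of the 17 fed-only sites had a median of 30.3 (16.02 to 53.8), that of the 17 sites with some starved peak 52.9 (34.9 to 66.7) and that of the 22 sites in all 6 libraries 73.9 (55.9 to 97.7). Over all 56 fed sites the median was 56.0, and over all 44909 fed sites of the genome 61.0.

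By rank, a starved peak was present at 0 of 8 lipogenic fed sites below a fed rank of 30, where the share over all such sites was 11.01%. Between 30 and 50 it was present at 7 of 14, against 35.5% over all sites in that band, and between 50 and 60 at 7 of 9, against 81.9%. All 25 sites above 60 had a starved peak. These were 12 between 60 and 70, 5 between 70 and 80 and 8 above 80, where the shares over all sites were 98.6, 100 and 100%.

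**Figure D3:**
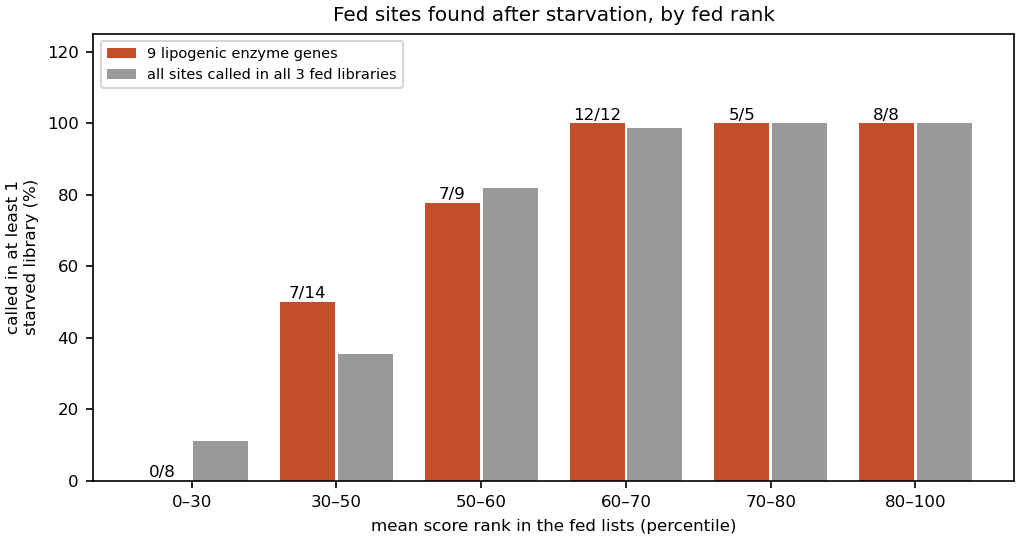
Share of fed sites (in %) with a peak in at least 1 starved library, by mean fed list rank in percentiles. Coloured bars are the 56 lipogenic fed sites with their counts, and grey bars are all fed sites of the genome. In both the share climbs with fed rank, from 0 of 8 below 30 to 12 of 12 between 60 and 70 at the lipogenic genes.

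By position, 77 of the 112 sites lay inside a gene, 2 crossed an annotated gene end and 33 lay outside. Of the 34 fed sites inside genes, 14 were called in all 6 libraries, 14 in some starved libraries and 6 in none. Of the 21 fed sites outside, 8 were called in all 6 libraries, 2 in some starved libraries and 11 in none. Over all protein-coding genes, counted as pairs of a fed site and a gene, the share with no starved peak was 32.3% inside and 26.1% outside, and that in all 6 libraries was 44.4% inside and 53.2% outside. The lipogenic genes thus had more fed-only sites outside than inside where all genes had a smaller share outside, and the difference was not tested. The median fed rank was 59.5 inside and 50.3 outside. Another protein-coding gene overlapped 20 of the 112 sites, so that not every site in a window belongs to the lipogenic gene by position alone.

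Per 100 kb of window, the 9 genes had a median of 11.2 sites, where the median of all 21900 protein-coding genes was 5.49 (quartiles 1.93 to 10.3). The densities ran from 7.47 at Elovl5 to 14.2 at Acly. For fed sites the median was 4.81 per 100 kb at the 9 genes and 3.17 over all protein-coding genes, and for sites in all 6 libraries it was 1.94 at the 9 genes and 1.55 over all. A site in all 6 libraries was present at 8 of the 9 genes, where the share over all protein-coding genes was 64.9%. A fed-only site was present at 6 of the 9, where that share was 47.0%. A longer window has more room for a site. The windows of the 9 genes ran from 44.6 to 312 kb, and the shares over all genes were not matched for window length.

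**Figure D4:**
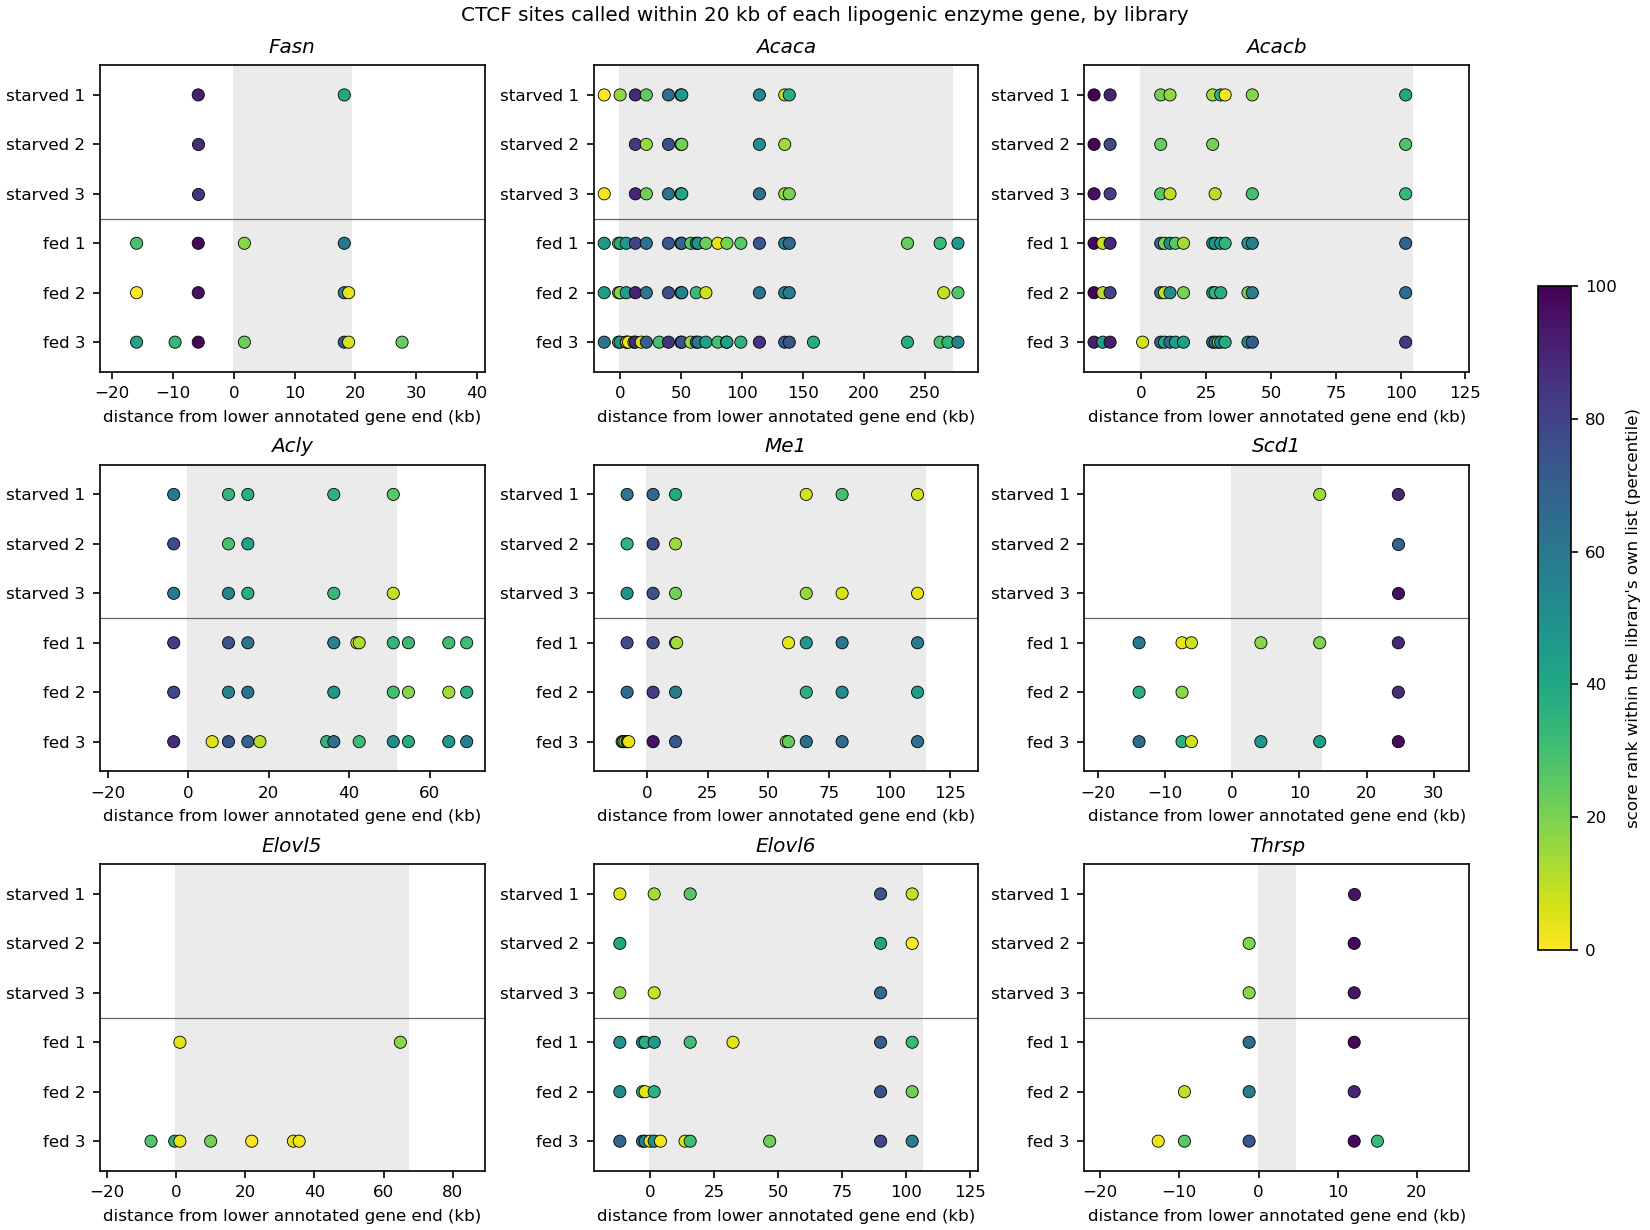
CTCF sites at the 9 lipogenic genes, plotted by distance from the lower annotated gene end in kb, with the gene body shaded, 1 row per library (starved above fed) and each point a called site coloured by its list rank in percentiles. The sites present in all 6 rows at Fasn, Scd1 and Thrsp lie beyond the gene body, while the 7 at Acaca lie inside it.

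Acly, ATP citrate lyase, supplies the cytosolic acetyl-CoA from which fatty acids are built. Its window on chromosome 11 held 13 sites, of which 8 were fed sites. The best-ranked, chr11:100472029-100473413, lay 2939 bp past the downstream end of the gene, over the promoter of its neighbour Klhl11. Its list ranks were 59.9, 76.7 and 59.9 in starved livers, against 82.5, 78.7 and 87.6 in fed livers.

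To set the same sites side by side across libraries, a shared rank was taken among the 22131 sites called in all 6, so that every library ranked the same sites. Which sites these are still depends on the shortest list, and without starved 2 they numbered 26125. By this rank the Klhl11 promoter site stood at 45.0, 75.1 and 46.8 in starved livers, against 55.8, 53.2 and 58.1 in fed livers, and the groups overlapped. Inside Acly, the site at chr11:100485988-100486685 had shared ranks of 26.4 ± 12.6 in starved and 19.6 ± 12.6 in fed livers (SD, n = 3 each). The other site in all 6 libraries, chr11:100490860-100491434, stood at 24.9 ± 12.2 in starved and 10.5 ± 6.41 in fed livers. Neither pair of groups was free of overlap.

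Closest to the Acly start, at a distance of 348 bp, was the site at chr11:100526957-100527652. It was called in starved 1 and 3, at list ranks of 25.9 and 8.91, and not in starved 2, and in fed 1, 2 and 3 at 34.5, 30.5 and 51.2. Upstream of the gene lay 3 fed-only sites, starting at 100530961, 100540956 and 100545371. None of them had a starved peak, and their fed list ranks ran from 13.5 to 55.6.

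Me1, the cytosolic malic enzyme, yields NADPH for fatty acid synthesis. It had 13 sites, of which 6 were fed sites, and starved livers had a peak, in 1 library or more, at every one of the 6. The best-ranked, inside the gene at chr9:86583335-86584464, had shared ranks of 53.8, 76.5 and 65.9 in starved livers, against 46.2, 61.1 and 84.4 in fed livers. The site at chr9:86572658-86573703, 7660 bp past the downstream end, stood at 36.6 ± 8.76 in starved and 33.1 ± 8.84 in fed livers (SD, n = 3 each). A weaker site inside the gene, chr9:86592881-86593405, stood at 12.5 ± 7.24 in starved and 10.8 ± 5.67 in fed livers. At these 3 sites the groups overlapped and the differences were at most 3.54 points.

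Nearest to the Me1 start, 2884 bp away and inside the gene, the site at chr9:86692714-86693030 was called in starved 1 and 3 at list ranks of 6.67 and 3.58, against 59.2, 44.4 and 64.3 in fed livers. The promoter windows of Me1 met no called site.

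Acaca encodes acetyl-CoA carboxylase 1, the cytosolic form whose malonyl-CoA feeds synthesis. It is the longest of the 9 genes, at 272 kb, with the most sites, 31, of which 15 were fed sites. The 7 sites called in all 6 libraries all lay inside the gene, and they included the single site with the widest gap in shared rank between the groups. By the median over a gene's sites, the difference was wider at Elovl6 (14.4 points, 2 sites) than at Acaca (10.3 points, 7 sites).

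At chr11:84179058-84179616 the shared ranks were 53.6, 58.1 and 41.7 in starved livers, against 10.5, 19.1 and 23.9 in fed livers. Every starved library lay above every fed library, at means of 51.2 ± 8.51 in starved and 17.8 ± 6.804 in fed livers (SD, n = 3 each). The difference of 33.3 points (SE 6.91) did not pass limma's test with Benjamini-Hochberg adjustment over all shared sites (adjusted p = 0.278).

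The strongest Acaca site, chr11:84141611-84142321, had shared ranks of 84.5, 83.1 and 86.3 in starved livers, against 49.0, 78.7 and 61.4 in fed livers. These groups did not overlap either, with a difference of 21.6 points (SE 7.997, limma adjusted p = 0.407). At chr11:84168851-84169500 the ranks were 50.8, 73.7 and 49.5 in starved livers, against 33.97, 48.3 and 48.1 in fed livers, again without overlap (difference 14.5 points, limma adjusted p = 0.581).

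The 4 other sites of this kind in Acaca overlapped between the groups. The site starting at 84179749, close to the one with the widest gap, stood at 22.8 ± 4.45 in starved and 13.9 ± 4.42 in fed livers, and that starting at 84243531 at 44.9 ± 7.62 in starved and 34.6 ± 16.3 in fed livers (SD, n = 3 each). The weakest, starting at 84150724 and 84264271, had means of 8.70 and 5.42 in starved livers, against 10.6 and 6.54 in fed livers. Of the 7 sites, 5 had a higher and 2 a lower mean in starved livers.

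Acaca also had 5 fed-only sites, starting at 84127994, 84134210, 84191765, 84199767 and 84406755. Fed list ranks at the one starting at 84134210, the best-ranked, were 46.9, 43.0 and 63.2. Over its lower annotated end, where the promoter of Tada2a also lies, the site at chr11:84129186-84129696 was called in starved 1 alone (list rank 16.4) and in fed livers at 37.8, 18.9 and 48.0. The RefSeq promoter window of Acaca in the table lies further inside the annotated gene, and the nearest called site, 1394 bp from it, was found in fed 1 and fed 3.

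Acacb encodes acetyl-CoA carboxylase 2, the form at the outer mitochondrial membrane whose malonyl-CoA restrains fatty acid oxidation. Its window held 17 sites, 13 of them fed sites, and 4 of these were called in all 6 libraries. The best-ranked, chr5:114127446-114128651, lay over the Alkbh2 promoter printed above. Its list ranks were 99.7, 98.9 and 96.4 in starved livers, against 97.7, 99.1 and 91.2 in fed livers, near the top of every list. By shared rank it stood at 97.8 ± 2.31 in starved and 87.4 ± 15.1 in fed livers (SD, n = 3 each), with overlap. The shared ranks in fed 1, 2 and 3 were 94.1, 98.1 and 70.1, so that among the shared sites it stood lower in fed 3.

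A neighbouring site upstream of Acacb, chr5:114133816-114134654, overlapped another protein-coding gene, Ung. Its shared ranks were 87.5, 76.8 and 75.8 in starved livers, against 72.8, 54.5 and 71.4 in fed livers. The groups did not overlap, and the difference of 13.8 points (SE 7.21) did not pass limma's test (adjusted p = 0.543). Inside the gene, the site starting at 114153355 stood at 11.4 ± 7.43 in starved and 16.9 ± 7.96 in fed livers, and that starting at 114247827 at 19.8 ± 5.10 in starved and 30.5 ± 13.7 in fed livers.

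The 4 fed-only sites of Acacb started at 114131161, 114154773, 114162386 and 114187229. The last had fed list ranks of 45.4, 20.6 and 56.1, and the one starting at 114162386 was the nearest called site to the promoter window, 2526 bp away. Another 5 fed sites inside the gene had a starved peak in 1 or 2 libraries, at starved list ranks between 10.5 and 34.8.

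Fasn, fatty acid synthase, assembles palmitate from malonyl-CoA. It had 7 sites, of which 3 were fed sites, and each of the 3 was of a different kind. The strongest, chr11:120799660-120800587, lay 5371 bp past the downstream end and was called in all 6 libraries, at list ranks of 91.1, 87.5 and 84.4 in starved livers, against 98.0, 96.0 and 99.2 in fed livers. Its shared ranks were 87.7, 86.6 and 79.1 in starved livers, against 94.955, 91.1 and 97.2 in fed livers. It was the 1 lipogenic site whose starved libraries all lay below the fed ones, with a difference of −9.95 points (SE 5.87) that did not pass limma's test (adjusted p = 0.597).

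The Fasn promoter site, chr11:120823614-120824618, covered the transcription start. It was called in starved 1 alone, at a list rank of 40.1, and in fed 1, 2 and 3 at 60.7, 58.0 and 73.3. Thus 1 of 3 starved and 3 of 3 fed lists held it. In fed 2 the site joined several peaks. The one ranked 58.0 ended 296 bp short of the start, and the one over the start ranked 38.2. In lists of equal length the site was kept in starved 1 at a rank of 23.0, and in fed livers at 7.95, 13.9 and 16.4, low in each list. The fed 2 value there is that of the peak short of the start, and the fed 2 peak over the start was not kept. The upstream part of the printed window met a much weaker site, chr11:120824715-120824955, called in fed 2 and fed 3 at list ranks of 4.39 and 5.89. Downstream, 15781 bp past the gene, the fed-only site at chr11:120789820-120790177 had fed list ranks of 29.2, 0.245 and 42.0.

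Thrsp, a nuclear protein whose expression accompanies that of lipogenic enzymes in liver, is the shortest of the 9 genes at 4.62 kb and had 5 sites, all outside its body. The strongest, chr7:97424528-97425518, lay 6978 bp upstream and was called in all 6 libraries. Its shared ranks were 92.5, 99.01 and 93.1 in starved livers, against 96.5, 79.0 and 92.2 in fed livers, so that it stood among the best-ranked shared sites in both states and the groups overlapped. On the downstream side, the site at chr7:97411379-97412114 was missing in starved 1, had list ranks of 18.8 and 17.8 in starved 2 and 3, and 63.6, 57.8 and 74.0 in fed livers.

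Scd1, the stearoyl-CoA desaturase that makes oleate, had 6 sites. The only one in all 6 libraries, chr19:44418510-44419828, lay 10801 bp above the gene. Its shared ranks were 84.7, 66.3 and 94.8 in starved livers, against 70.9, 70.2 and 90.1 in fed livers, with overlap. Both other fed sites were fed-only, starting at 44380396 and 44386819. The better-ranked of them, at 44380396, had fed list ranks of 59.9, 36.7 and 64.8 and was, by mean fed rank, the highest of the 17 fed-only sites.

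At the upper annotated end of Scd1, 9 bp inside it, the site at chr19:44407236-44407700 was called in starved 1 (list rank 14.4), fed 1 (19.3) and fed 3 (42.7). The other 3 libraries had no peak there.

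Elovl6, the elongase that takes palmitate to stearate, had 12 sites and 6 fed sites. Of the latter, 2 were called in all 6 libraries. The better-ranked, inside the gene at chr3:129622047-129622708, had shared ranks of 62.9, 37.2 and 54.7 in starved livers, against 28.0, 45.8 and 27.2 in fed livers, with overlap. The other, chr3:129520357-129520936, stood at 0.676, 37.6 and 4.08 in starved livers, against 0.883, 5.80 and 3.14 in fed livers, and only starved 2 was far from the rest.

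Before the Elovl6 start, 2 fed-only sites began at 129529300 and 129530363, with fed list ranks of 50.4, 35.9 and 62.2 at the first. Over the start itself, the site at chr3:129532253-129532581 was called in fed 3 alone, at a list rank of 4.82. This is the site that meets the printed Elovl6 window without covering its motif match.

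Elovl5, an elongase of polyunsaturated fatty acids, stood apart from the other 8 genes. Its 8 sites included no fed site and none called in a starved library. Fed 3 alone held 6 of them, fed 1 alone 1, and both held 1, while fed 2 held none. The highest list rank among them was 37.4, in fed 3. Of all protein-coding genes, 9.12% likewise had sites in their window and none in a starved library. The nearest site called in all 6 libraries lay 20782 bp above the gene, just outside the window, and the next one on the other side 109919 bp below it. The site closest to the Elovl5 promoter window, 260 bp from the start, was called in fed 3 alone.

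Taken over the 22 lipogenic sites called in all 6 libraries, shared ranks had a median of 48.0 in starved and 33.4 in fed livers. The starved minus fed difference had a median of 6.24 points over the 22 sites and ran from −10.7 to 33.3, where the median over all 22131 shared sites was 0.38 (quartiles −6.77 to 6.90). In fed livers the median of the 22 sites was below the middle of the shared sites, while single sites had mean shared ranks from 3.27 to 94.4. The values over all sites were not matched for rank. Whether other sites of similar fed rank differ in the same way was not tested. The mean was higher in starved livers at 16 sites and lower at 6, where 51.6% of all shared sites were higher. The median difference was 2.12 without fed 2 and 2.28 without starved 2, so that 1 library in either group moved much of it.

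Starved libraries all lay above fed ones at 4 of the 22 sites, the 3 in Acaca and 1 at Acacb described above, where the share over all shared sites was 8.51%. They all lay below at 1 site, that of Fasn, where the share was 7.37%. By limma with Benjamini-Hochberg adjustment, 0 of 22131 shared sites were called (percentage called 0). At an unadjusted p under 0.05 limma gave 2326 sites (10.5%), of which 2 were lipogenic, both in Acaca. Using normal scores of the ranks limma called 33 sites, using the mean rank of a site's peaks 6, and using ranks within lists of equal length 1, and none of these was lipogenic.

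**Figure D5:**
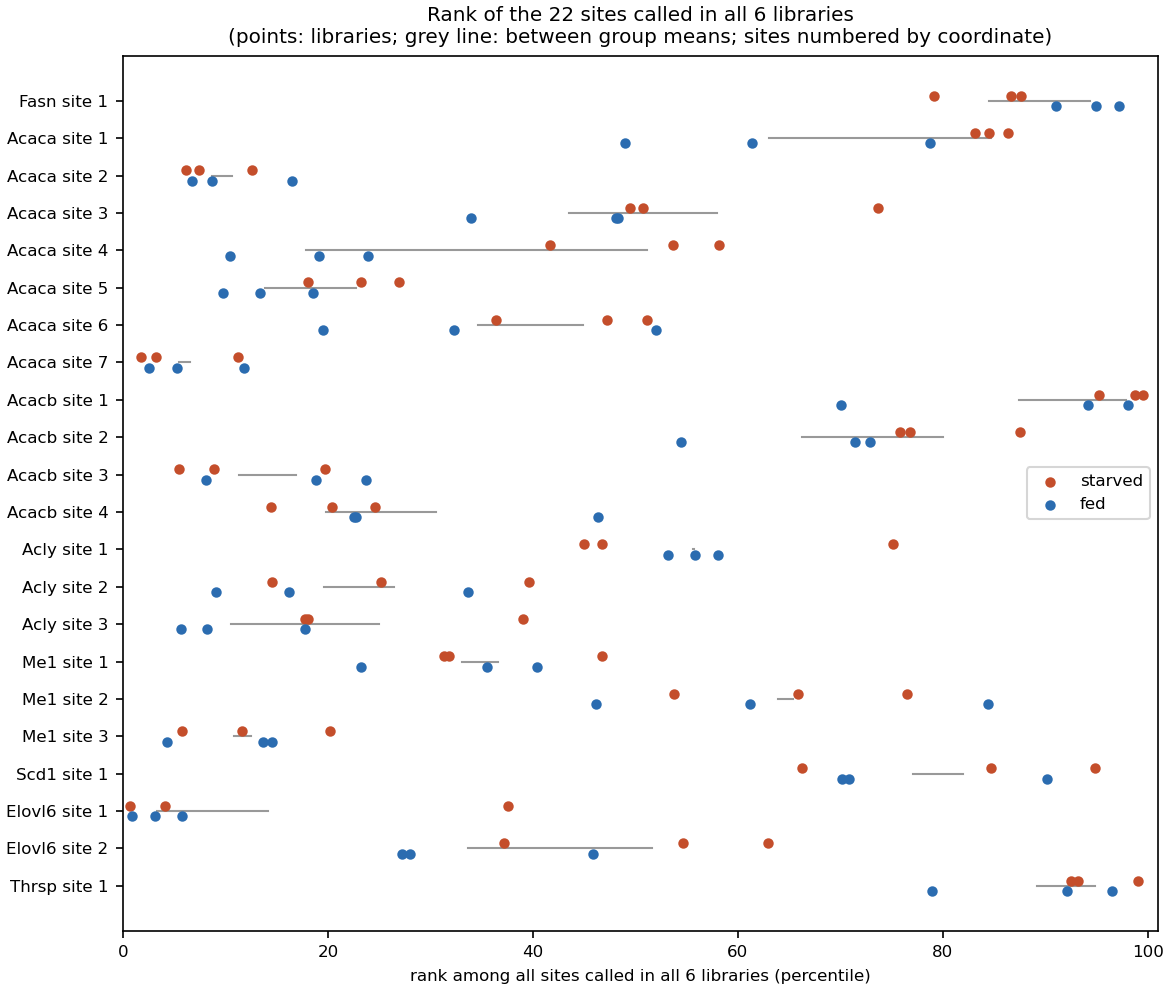
Shared rank (percentile among all sites called in all 6 libraries) of the 22 lipogenic sites of this kind, by gene and numbered by coordinate. Points are libraries, starved drawn above fed in each row, and the grey line joins the group means. The widest gap is at Acaca site 4 (51.2 starved, 17.8 fed), and Fasn site 1 is the row with all starved points to the left of the fed ones.

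Peaks also covered fewer bases at these 22 sites in starved livers. Width was summed over all peaks of a library in a site. Its median was 390.5, 242.5 and 330.5 bp in starved 1, 2 and 3, against 628.5, 556.5 and 675 bp in fed 1, 2 and 3. Over all shared sites the median widths were 419, 254 and 335 bp in starved livers, against 704, 623 and 788 bp in fed livers. The groups did not overlap in either set, and no test was run on widths.

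Other genes of fat metabolism were counted by list, with the same window and classes. Regulators of lipogenesis (14 genes) had 59 fed sites, of which 20 (33.9%) were fed-only and 27 (45.8%) were called in all 6 libraries. Genes of precursor and NADPH supply (16 genes) had 63 fed sites, 8 of them fed-only (12.7%) and 42 in all 6 libraries (66.7%), at a median fed rank of 70.04 against 56.0 for the 9 lipogenic genes. Other elongases and desaturases (14 genes) had 12 fed-only sites of 49 (24.5%), triglyceride assembly (14 genes) 15 of 59 (25.4%), and fatty acid oxidation and ketogenesis (18 genes) 26 of 97 (26.8%). The shares over all fed sites were 29.1% fed-only and 49.3% in all 6 libraries, and no list was tested against them.

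Among the regulators, the best-ranked fed-only site was at Mlxipl, which encodes the glucose-responsive factor ChREBP (chr5:135111876-135112418, mean fed list rank 48.0). Srebf1, the insulin-responsive factor of lipogenesis, had the best-ranked site in all 6 libraries, at shared ranks of 96.7 ± 4.23 in starved and 98.3 ± 1.03 in fed livers (SD, n = 3 each). At Insig1, which retains SREBP in the endoplasmic reticulum, the shared rank was 48.9 ± 19.1 in starved and 14.0 ± 7.05 in fed livers (limma adjusted p = 0.307). At Mlycd, which degrades malonyl-CoA, it was 13.9 ± 6.86 in starved and 37.6 ± 10.4 in fed livers (limma adjusted p = 0.349).

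In the other lists the widest differences did not pass limma's test either. At Pklr, the liver pyruvate kinase of glycolysis, the shared rank was 48.4 ± 15.3 in starved and 82.6 ± 11.9 in fed livers (limma adjusted p = 0.301). At Cpt1a, which commits fatty acids to mitochondrial oxidation, it was 51.1 ± 21.6 in starved and 81.5 ± 8.005 in fed livers (limma adjusted p = 0.388). At Lpin2, a phosphatidate phosphatase of triglyceride assembly, it was 43.5 ± 5.64 in starved and 18.3 ± 5.03 in fed livers (limma adjusted p = 0.291). The lipogenic site at Acaca with 33.3 points lay within the range of these lists, whose widest differences were 34.9 points at Insig1 and −34.2 points at Pklr.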

How the data were processed

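CTCF ChIP-seq of whole snap-frozen livers, with MicroPLEX v2 libraries, gave 6 peak lists, deposited per library and not pooled. Every list gave a position and a score per peak, and the 6 input libraries were not used here. The sources used here do not define this score of the authors, which was 2.00 to 2.10 at the lowest in the deposited lists. The submitters' processing notes name the build mm10 and the tools MACS2, HOMER, BWA 0.7.5a, bedtools 2.17, SAMtools and FastQC without their order or role. For read depth and the use of the inputs, nothing was stated.

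Groups came from the sample titles. An overlap of 1 bp or more joined peaks into 1 site, and sites overlapping a RefSeq gene (GRCm38.p6) or 20 kb on either side were assigned to it. List rank was the percentile of a site's best score within its own list. Equal-length lists kept the 23926 best-scored peaks. Shared rank was the percentile among 22131 sites called in all 6 libraries, tested with limma 3.58.1 in R 4.3.3 (Benjamini-Hochberg over all of them, threshold 0.05). Counts per library were compared by a two-sided exact permutation test, and shares have exact Clopper-Pearson 95% intervals. On simulated ranks for the comparison of 22131 shared sites, 59 of 100 sites shifted by 1.5 SD and 92 of 100 shifted by 3 SD were recovered, with 10 false calls. This SD is that of normal scores across sites and not the spread between libraries, and shifted sites were picked with room to move. The Acaca site with the widest rank gap differed by 0.975 on that scale, below both shifts. The simulation thus does not say how often differences of that size would be found.

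Same-numbered libraries did not deviate together (correlations of 0.010, −0.029 and 0.009), so numbers were not taken as pairs. Named at each of the 9 genes were the site of highest mean fed rank, each site called in all 6 libraries, each fed-only site and any site over a gene end, and for 5 other lists (all 85 genes matched by symbol) at most 4 sites by rank or rank difference, not all of which are given in the text. Other sites named, such as those nearest to a gene start, were chosen after their values were seen. The members and lists were chosen with earlier results of these data known. Alternatives were a score limit at the median of 30.4, merging within 500 bp, trimming to 200 bp, gene bodies alone, windows of 5 and 50 kb, other list lengths, at least 2 fed libraries, other rank scales, fits with a replicate block and fits that leave out each library in turn. Counts and figures were made in Python 3.11.15 (scipy 1.17.1, matplotlib 3.10.9, numpy 2.4.6, pandas 2.3.3).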

Additional observations from a re-analysis of the deposited data

How the results depend on the processing

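The difference in sites called per library (−48) stayed between −59.5 and −35.5 when 1 library was left out and was −48 with a replicate block (exact sign-flip p = 0.25, the smallest that 3 pairs allow). In lists of equal length the difference (−2.33) was 1.67 at 11963 peaks a list, −3.17 to 0 with 1 library left out (0 without starved 2, whose list sets the length) and −2.33 with the replicate block (exact p = 0.25). The fed-only share (30.4%) was 51.7% at the stricter score limit, 17.1% in gene bodies alone (30.5% over all gene bodies), 0% in lists of equal length and 30.4 to 42.5% with 1 library left out. The highest was without fed 2, where the share over all fed sites was 39.5%. The median shared-rank difference (6.24) was 9.68 at the stricter score limit, 8.21 with ranks within equal-length lists, 7.83 in gene bodies alone and 2.12 to 9.25 with 1 library left out. Limma called 0 shared sites in the main analysis, with the replicate block and with 1 library left out, 33 with normal scores, 6 with mean ranks of peaks and 1 with equal-length ranks. Median sites per 100 kb (11.2) were 7.28 with a 50 kb window. The 5 sites named for not overlapping between groups kept their direction in all 13 alternatives each. They were chosen for this in the same data, so their direction was largely fixed in advance and the alternatives are no independent check. The cause of the shifts listed here was not tested, except that lists of equal length hold fewer fed peaks by construction. The stricter limit is 1 fixed score for lists whose scores were not scaled to each other. With read depth unknown, a missing peak cannot be told from a site below the calling limit, and with 3 libraries a group no permutation p under 0.1 is possible.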
